A study of Homo sapiens with 12 samples.

Results

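CBX7 silencing was studied in 5637 cells, an established human bladder cancer line, by comparing 3 RNA-seq libraries of cells carrying a short hairpin RNA against CBX7 (shCBX7) with 3 libraries of cells carrying a control hairpin. The genes described are those with a mean of at least 0.5 FPKM (fragments counted per length of transcript and per size of library) over the 6 libraries, which 12689 of the 29890 genes in the 5637 table met. Both arms were grown in RPMI-1640 with serum, and no drug treatment is recorded for either, so every comparison is between silenced and control cells without cisplatin. The series also holds 6 libraries of 786-O renal cancer cells with the same 2 arms, which are used at the end only. All 3 control libraries carry the cell line label 5637, although their titles give differing numbers in its place. The control columns were therefore tied to the control group and not to single samples. The labels do not say whether the libraries came from separate cultures or how many clones each arm holds, and every p-value is therefore set against library-to-library spread that could be purely technical.

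CBX7 is a chromobox protein of Polycomb repressive complex 1 (PRC1). It binds the histone H3 methyl mark that EZH2 or EZH1 places as the catalytic subunit of Polycomb repressive complex 2 (PRC2). PRC1 then ubiquitinates histone H2A and compacts chromatin, which keeps developmental genes silent. FGFR3, a receptor tyrosine kinase for fibroblast growth factors, is a known oncogene of urothelial cancer, and the series title names it together with EZH2 and cisplatin sensitivity. The design asks how far the hairpin lowered CBX7 and which genes moved with it.

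The libraries were deep and close to each other. Totals implied by the FPKM steps ran from 19784641 to 32544606 fragments. Pearson correlations across genes on the log2(FPKM + 1) scale were 0.995 to 0.996 between libraries of one arm and 0.989 to 0.991 between arms. Of the epithelial and urothelial marker list, 10 of 12 genes were tested and their summed level was 2110 to 2130 FPKM in control and 2300 to 2330 FPKM in shCBX7 libraries. Markers of other cell types were low, with summed levels of at most 20 FPKM for 8 fibroblast genes, where COL1A1 alone made up 14.1 to 14.6 FPKM of the control sum, and at most 0.8 FPKM for 6 endothelial genes. The leukocyte list summed to 44 to 46 FPKM in control libraries, nearly all of it LAPTM5, a lysosomal membrane protein gene (42.6 to 44.5 FPKM). COL1A1 and LAPTM5 were both lower after silencing (log2 changes of -0.20 and -0.21). In bulk RNA, fewer cells of a type and less RNA per cell cannot be told apart.

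CBX7 itself was only slightly lower. In the control libraries CBX7 (chromosome 22, 39120167 to 39152674, minus strand, GRCh38) stood at 2.19, 2.17 and 2.42 FPKM, and in the shCBX7 libraries at 1.86, 1.80 and 1.97 FPKM. The arms did not overlap, but the silenced mean was 83.3% of the control mean, a log2 change of -0.18 (SE 0.0462, limma adjusted p = 0.0188) resting on 275 to 549 reads per library as recovered from the FPKM steps. Without shCBX7 replicate 2 the change was -0.16 with an adjusted p of 0.0606, and without control replicate 3 it was -0.14 with an adjusted p of 0.0586. The exact two-sided permutation test of 3 against 3 gave p = 0.1, the smallest it can give. The CBX7 protein was not measured here. Of 5 tested genes within 150 kb of CBX7, 2 were higher and 1 lower. PDGFB, which encodes a platelet-derived growth factor chain, was higher (8.62 ± 0.32 in control and 14.6 ± 0.05 FPKM in shCBX7, SD, n = 3; log2 change 0.70, limma adjusted p = 1.97e-05) and the cytidine deaminase genes APOBEC3F and APOBEC3B changed by 0.20 and -0.21. The APOBEC3F call was lost without shCBX7 replicate 1 or 3 or control replicate 1 or 2 (limma adjusted p 0.0512 to 0.0623).

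Many genes differed by a little and few by much. Changes were computed as shCBX7 minus control on log2(FPKM + 1), a scale that shrinks the fold of weakly expressed genes, and called at a limma adjusted p below 0.05. By that rule 5651 of 12689 genes changed (44.5%), with 3094 higher (24.4%) and 2557 lower (20.2%), while the median change over all tested genes was 0.01 and the median absolute change 0.104. Of these, 48 rose (0.378%) and 53 fell (0.418%) by at least 1.5-fold. In 7155 genes (56.4%) the 3 silenced libraries did not overlap the 3 controls. Calls were less frequent at low level, where below 1 FPKM 83 genes were higher and 102 lower of 1183 tested, against 66 higher and 100 lower of 299 at 100 FPKM and above. The 101 genes past 1.5-fold comprised 46 protein-coding, 19 microRNA and 16 small nuclear RNA genes. By symbol, 7 of 167 microRNA genes were called higher and 28 lower at any fold. For small nuclear RNU genes and copies it was 4 and 18 of 135. With voom, limma's method for counts, on recovered reads these became 4 and 19 of 161 and 1 and 9 of 133. Whether the small RNA calls rest on few reads was not tested. A group's count is read below against the 24.4% and 20.2% of all genes.

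**Figure D1:**
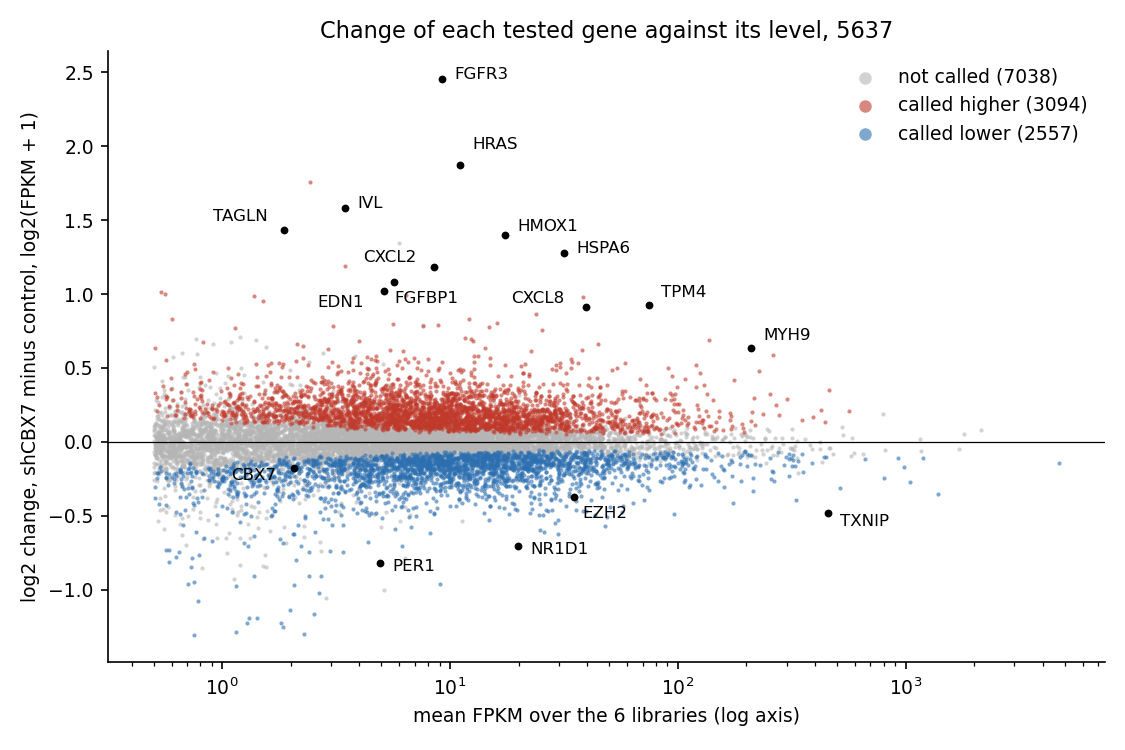
Log2 change on the log2(FPKM + 1) scale (shCBX7 minus control, vertical axis) against the mean level over the 6 libraries (FPKM, log axis), 1 point per tested gene, with the 3094 higher genes in red, the 2557 lower in blue, the others in grey and selected named genes in black. FGFR3 stands highest at 2.46, while CBX7 lies at -0.18 within the dense band of small changes.

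FGFR3 had the largest log2 change of all tested genes. FGFR3 (chromosome 4, 1793293 to 1808872, plus strand) was at 2.15, 2.02 and 2.28 FPKM in control libraries and at 15.7, 16.8 and 16.4 FPKM in shCBX7 libraries. The lowest silenced library was far above the highest control, with a ratio of means of 7.59 and a log2 change of 2.46 (SE 0.0393, limma adjusted p = 7.27e-07). Of 5 tested genes within 150 kb of FGFR3, only LETM1, a mitochondrial inner membrane protein gene, was called (4.74 in control and 6.31 FPKM in shCBX7, log2 change 0.35). The other 4 did not pass the test. Among 14 tested FGF receptors, ligands and cofactors, 5 were higher and 1, the adaptor FRS2, was lower (-0.13). The FRS2 call was lost with the replicate number as a block (limma adjusted p = 0.0634) and without shCBX7 replicate 1 or 3 or control replicate 1 or 2 (0.0964 to 0.117). FGFBP1, a secreted carrier that releases FGFs from the matrix, rose from 3.17, 3.06 and 3.60 FPKM to 8.18, 7.45 and 8.57 FPKM (log2 change 1.08, limma adjusted p = 6.02e-05). The heparan sulfate proteoglycans SDC1 and SDC4 rose by 0.20 and 0.16 and the decoy-like receptor FGFRL1 by 0.13.

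Other genes with the largest changes had different roles. IVL, the cornified envelope precursor involucrin, rose from 1.14, 1.19 and 1.36 FPKM to 5.87, 5.81 and 5.34 FPKM (log2 change 1.58, limma adjusted p = 8.82e-06). EDN1, the vasoconstrictor peptide endothelin 1, rose from 3.17, 3.08 and 2.87 FPKM to 7.63, 7.07 and 6.95 FPKM (log2 change 1.02, limma adjusted p = 2.19e-05). In both genes all silenced libraries were above all controls. HRAS, a small GTPase of the RAS family, was at 2.03, 5.58 and 5.42 FPKM in control and 23.2, 14.9 and 15.4 FPKM in shCBX7 libraries. The first-numbered library stood apart from the other two in each arm of HRAS, which gave a log2 change of 1.87 with an SE of 0.313 (limma adjusted p = 0.00311). Genes that fell included AQP3, a water and glycerol channel of urothelium (36.4 to 23.3 FPKM), YOD1, a deubiquitinase (31.3 to 20.2 FPKM), RBM15, an adaptor of RNA methylation (30.2 to 19.6 FPKM), and PPP1R15B, a regulatory subunit of the eIF2α phosphatase (57.2 to 38.3 FPKM). Among abundant genes AKAP12, a kinase scaffold, rose from 105 to 169 FPKM, and PSAP, the precursor of the saposins of the lysosome, fell from 373 to 284 FPKM.

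**Figure D2:**
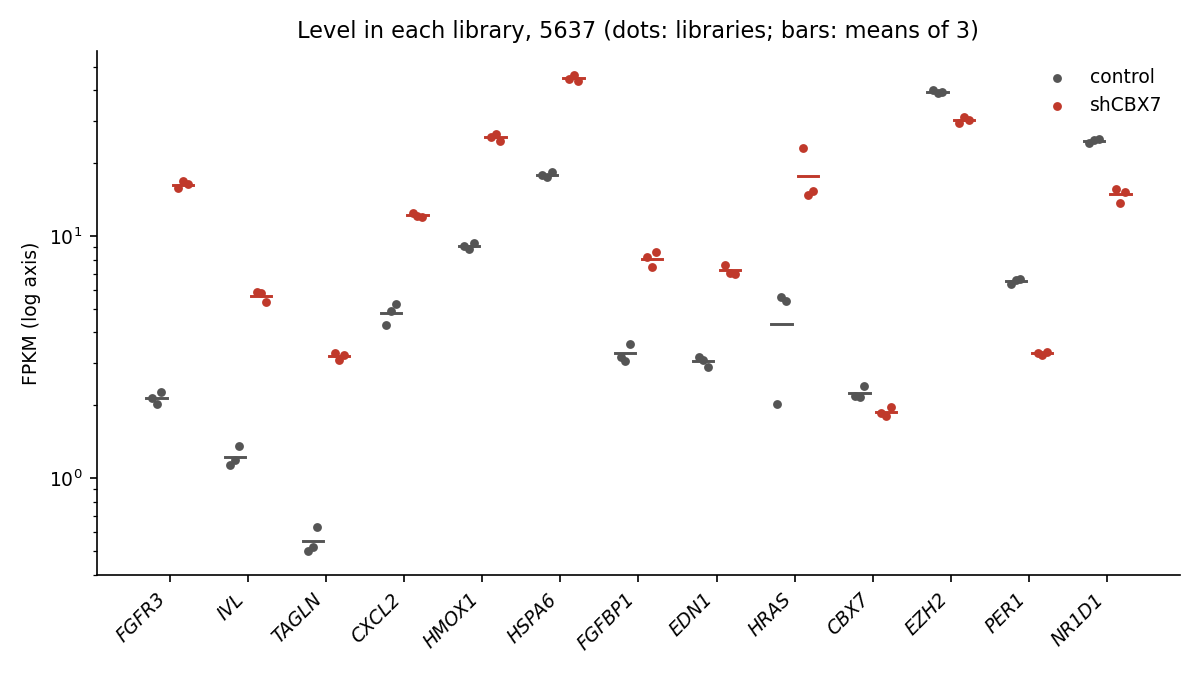
Level (FPKM, log axis) of 13 named genes in the 3 control (grey) and 3 shCBX7 (red) libraries, 1 dot per library with a bar at the mean of 3. The arms do not overlap in any of these genes, and CBX7 at 1.80 to 1.97 against 2.17 to 2.42 FPKM has the narrowest gap, whereas the HRAS dots spread widely within each arm.

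The noncoding genes among the largest falls lie across or beside other genes, and whether the counting used strand is not given in the sources used here. HM13-AS1 stood at 2.42 FPKM in control and 1.18 in shCBX7 libraries while its partner HM13 was at 16.6 and 17.3 FPKM. OGFR-AS1 fell from 10.1 to 6.21 FPKM beside OGFR at 38.6 FPKM in both arms. Reads of such pairs cannot be told apart without strand.

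Of the circadian clock genes tested, 11 of 20 were lower. In the clock, CLOCK and ARNTL (BMAL1) bind E-box sequences and switch on PER, CRY, NR1D, DBP and related genes, whose proteins feed back on the pair. Of 24 clock genes 20 were tested, and those that fell made up 55% of them, against 20.2% of all genes, while 0 rose, with a median log2 change of -0.14 against 0.01 over all genes. The 11 were lower with quantile normalization and median centring too, and 10 or 11 were lower whichever library was left out. With voom, limma's method for counts, on reads recovered from the FPKM steps, 11 of 19 were lower (median log2 change -0.27, on a scale with no added 1 FPKM) and 1, ARNTL2, was higher (0.073, limma adjusted p = 0.0495).

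PER1, a repressor of CLOCK and ARNTL (chromosome 17, 8140472 to 8156506, minus strand), was at 6.37, 6.62 and 6.67 FPKM in control and 3.28, 3.24 and 3.31 FPKM in shCBX7 libraries. NR1D1, the haem-binding repressor REV-ERBα, was at 24.3, 24.9 and 25.1 FPKM in control and 15.7, 13.7 and 15.3 FPKM in silenced libraries. DBP, a PAR bZIP output factor, was at 7.75, 8.5 and 8.56 FPKM in control and 5.00, 5.29 and 5.32 FPKM in silenced libraries. In all 3 genes every silenced library was below every control, with log2 changes of -0.82 (SE 0.0285, limma adjusted p = 9.62e-06), -0.70 (limma adjusted p = 9.15e-05) and -0.58 (limma adjusted p = 1.29e-04). NR1D1 shares its locus with THRA on the opposite strand, which was at 10.3 and 10.6 FPKM. Further falls were those of NR1D2 (19.1 to 14.7 FPKM, log2 change -0.36), NFIL3, which opposes DBP (60.6 to 48.2 FPKM, -0.33), BHLHE40 (48.5 to 39.7 FPKM, -0.28), BHLHE41 (-0.27), TEF (-0.28), PER2 (-0.24) and CRY2 (-0.13). RORA was called at -0.15, and that call was lost with the replicate block (limma adjusted p = 0.0654) and without any 1 library other than control replicate 2 (0.054 to 0.0663). The activators did not pass the test, with log2 changes of -0.08 for CLOCK, 0.01 for ARNTL and 0.07 for NPAS2, and neither did CRY1 at 0.04.

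Because E-boxes are the sites of CLOCK and ARNTL, the promoter windows of the clock members were searched for the E-box CACGTG, a palindrome that reads the same on both strands. Each window holds 250 bases before and 50 bases after a RefSeq transcript start of GRCh38.p14, printed 5′ to 3′ on the gene's strand, and 16 of the 20 tested members had at least 1 window. The motif was in 7 of 22 clock windows (31.8%) and in 2548 of 35116 windows of all genes (7.26%). Of the 11 lower members 5 held it, namely PER1, NR1D2, BHLHE40, BHLHE41 and TEF. TIMELESS held it as well and was not called. A match is a description of letters and not a bound site. Windows of 4 lower members are shown with the E-box in capitals, at chr17:8152355-8152654 (PER1, minus), chr3:23945871-23946170 (NR1D2, plus), chr12:26124988-26125287 (BHLHE41, minus) and chr22:41367205-41367504 (TEF, plus).
PER1: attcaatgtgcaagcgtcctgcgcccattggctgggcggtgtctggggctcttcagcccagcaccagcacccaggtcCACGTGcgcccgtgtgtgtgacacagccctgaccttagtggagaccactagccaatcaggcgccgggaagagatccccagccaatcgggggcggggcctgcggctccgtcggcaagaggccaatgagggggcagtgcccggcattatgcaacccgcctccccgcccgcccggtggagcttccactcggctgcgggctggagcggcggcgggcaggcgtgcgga
NR1D2: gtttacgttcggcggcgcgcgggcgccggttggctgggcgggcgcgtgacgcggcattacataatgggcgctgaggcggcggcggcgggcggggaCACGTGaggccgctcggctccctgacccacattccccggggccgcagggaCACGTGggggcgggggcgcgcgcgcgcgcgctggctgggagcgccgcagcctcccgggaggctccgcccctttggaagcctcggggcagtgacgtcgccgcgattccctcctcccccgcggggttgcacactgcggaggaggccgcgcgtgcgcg
BHLHE41: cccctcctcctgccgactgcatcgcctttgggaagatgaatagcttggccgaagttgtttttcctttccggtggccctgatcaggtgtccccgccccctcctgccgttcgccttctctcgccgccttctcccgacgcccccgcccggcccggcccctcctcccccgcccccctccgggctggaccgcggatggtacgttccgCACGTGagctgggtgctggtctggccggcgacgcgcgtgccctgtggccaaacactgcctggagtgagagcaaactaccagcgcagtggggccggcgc
TEF: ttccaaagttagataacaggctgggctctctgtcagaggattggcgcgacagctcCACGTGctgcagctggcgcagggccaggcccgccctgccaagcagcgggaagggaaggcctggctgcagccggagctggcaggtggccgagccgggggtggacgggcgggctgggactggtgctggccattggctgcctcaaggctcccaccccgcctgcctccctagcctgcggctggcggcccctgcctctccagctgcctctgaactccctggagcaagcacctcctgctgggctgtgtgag

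**Figure D3:**
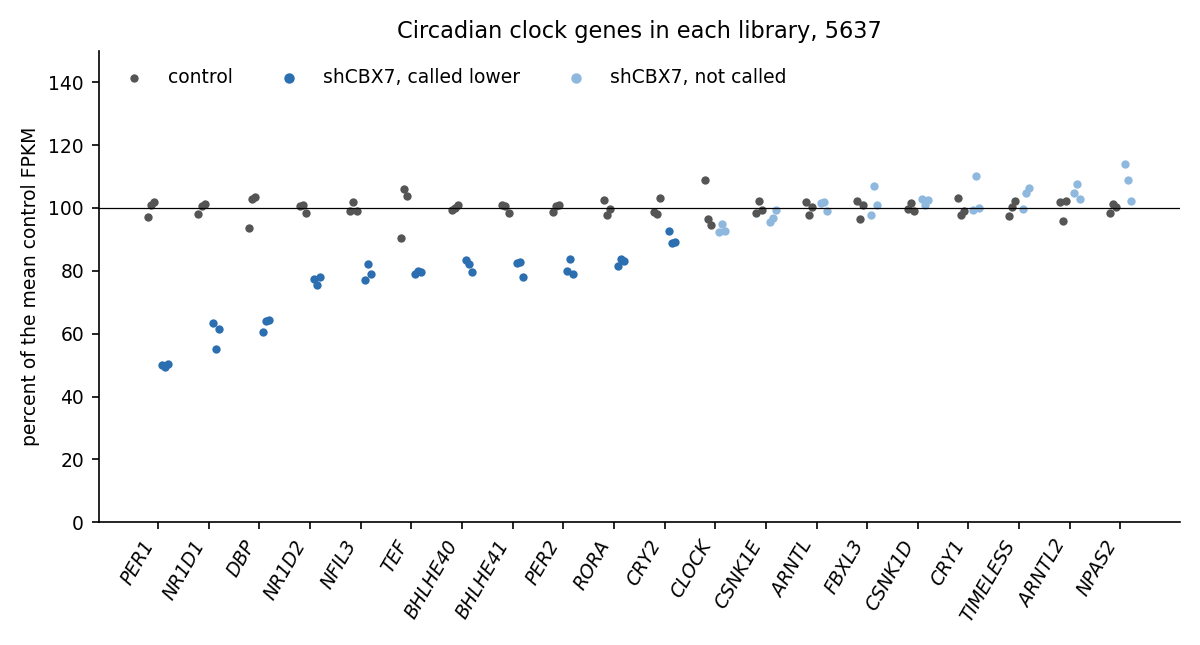
Level of the 20 tested circadian clock genes in each library as a percentage of the gene's mean control FPKM (vertical axis), with control libraries in grey and shCBX7 libraries in dark blue (called lower) or light blue (not called). The silenced libraries of PER1 lie at about 50% and those of all 11 called genes lie below their controls, while CLOCK, ARNTL and CRY1 lie near 100%.

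Glucocorticoid receptor targets, several of which also cycle in tissues, split. Of 13 tested, 5 rose (38.5%) and 6 fell (46.2%). TXNIP, a thioredoxin-binding inhibitor of glucose uptake, was at 536, 527 and 532 FPKM in control and 376, 383 and 380 FPKM in silenced libraries (log2 change -0.49, limma adjusted p = 1.97e-05). KLF9 fell by 0.41 and TSC22D3, the leucine zipper protein GILZ, by 0.37 on the log2 scale. FKBP5, a chaperone of the receptor, rose by 0.27 and CEBPD by 0.32, while the receptor gene NR3C1 fell by 0.14.

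The actin cytoskeleton and its SRF and YAP targets included 15 higher and 4 lower of 28 tested genes (median log2 change 0.17). SRF is the transcription factor that senses free actin through its MRTF partners and drives contractile genes. TAGLN, an actin-bundling calponin family protein, was at 0.499, 0.522 and 0.629 FPKM in control and 3.28, 3.07 and 3.23 FPKM in silenced libraries (log2 change 1.44, limma adjusted p = 9.00e-06). TPM4, a tropomyosin that coats filaments, was at 51.6, 51.0 and 50.5 FPKM in control and 99.4, 97.5 and 96.2 FPKM in silenced libraries (log2 change 0.92, limma adjusted p = 2.43e-06). All silenced libraries of both genes were above all controls. CALD1 (caldesmon) rose by 0.78, ACTN1 (α-actinin) by 0.66, MYH9 (non-muscle myosin heavy chain) by 0.64, FLNA (filamin) by 0.29 and SRF itself by 0.28. Members differed, since TPM2 fell by 0.31 and LATS2, a kinase that inhibits YAP, by 0.14. ACTG1, cytoplasmic γ-actin and among the most abundant genes, was at 1557 FPKM in control and 1217 FPKM in silenced libraries, a log2 change of -0.36 that became 0 with quantile normalization.

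Cell adhesion genes moved both ways. Of 22 hemidesmosome and integrin genes 11 rose and 5 fell, of which 3 were lower with the replicate block or without shCBX7 replicate 2 or control replicate 2 or 3. FERMT1, the integrin activator kindlin-1, rose from 28.3, 27.3 and 28.5 FPKM to 39.8, 41.4 and 39.3 FPKM (log2 change 0.50, limma adjusted p = 4.89e-05). ITGA2 rose by 0.33, LAMA3 by 0.26 and COL17A1 by 0.20, whereas the hemidesmosomal integrin ITGB4 fell from 310 to 277 FPKM (log2 change -0.16) and LAMA5 and the tetraspanin CD9 fell by 0.16 and 0.18. Among plasminogen activators, metalloproteinases and their inhibitors 10 of 20 rose and 2 fell. MMP10 rose from 9.38, 9.26 and 9.06 FPKM to 14.6, 16.5 and 15.6 FPKM (log2 change 0.69, limma adjusted p = 6.72e-05). SERPINB2, an inhibitor of plasminogen activators, rose by 0.46, and MMP15 and TIMP1 fell by 0.18 and 0.19.

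Secreted chemokines and colony-stimulating factors were higher in 9 of 12 tested genes, 75% of the list against 24.4% of all genes, and lower in 0. These ligands recruit or expand neutrophils and other myeloid cells. CXCL2 was at 4.3, 4.89 and 5.25 FPKM in control and 12.5, 12.1 and 12 FPKM in silenced libraries (log2 change 1.19, limma adjusted p = 3.33e-05). CXCL1 was at 26.0, 25.8 and 24.8 FPKM in control and 50.1, 51.3 and 52.3 FPKM in silenced libraries (log2 change 0.98, limma adjusted p = 4.75e-06). CXCL8 was at 27.3, 26.9 and 26.9 FPKM in control and 46.1, 54.5 and 55.1 FPKM in silenced libraries (log2 change 0.91, limma adjusted p = 1.10e-04). No silenced library overlapped a control for any of the 3 chemokines. CSF2 (GM-CSF) rose from 11.4 to 20.6 FPKM and CSF3 (G-CSF) from 6.24 to 11.5 FPKM. CXCL5 rose by 0.22. Of 20 tested genes listed under the interleukin 1 and interleukin 6 families 9 rose and 5 fell. LIF (0.37) and IL11 (0.33) were higher, as was IL1B at 220 and 251 FPKM, and IL18 (-0.33) and IL6R (-0.21) were lower. The 9 include IL7R (0.45), a receptor gene of neither family. The 5 lower calls became 3 with the replicate block or without any 1 library other than control replicate 2.

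ERBB receptors, their ligands and related genes were higher in 8 of 16 and lower in 0. HBEGF, a heparin-binding EGF receptor ligand, rose from 17.7, 17.4 and 17.1 FPKM to 24.7, 24.4 and 24.0 FPKM (log2 change 0.47, limma adjusted p = 2.95e-05). EPGN rose by 0.46, EGFR by 0.26, TGFA by 0.19 and ERBB2 by 0.10. Of 20 feedback genes downstream of MAPK kinases 5 rose and 5 fell (25% each), near the 24.4% and 20.2% of all genes. The phosphatases DUSP1, DUSP5, DUSP6 and DUSP4 rose by 0.39, 0.36, 0.26 and 0.21, and DUSP10, the ERK pathway inhibitor SPRY1 and the ETS factor ETV4 fell by 0.34, 0.31 and 0.18. Of 21 AP-1 and immediate early genes 4 rose and 9 fell. FOSL1, the AP-1 subunit FRA1, rose from 105, 106 and 104 FPKM to 149, 143 and 143 FPKM (log2 change 0.46, limma adjusted p = 3.63e-05), and MYC rose from 79.1 to 96.8 FPKM, while KLF4, JUNB and KLF10 fell by 0.24, 0.21 and 0.14.

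Chaperones of the cytosol were higher in 15 of 24 tested genes and lower in 2, with a median log2 change of 0.13. Heat shock factor 1 switches these genes on from inverted GAA repeats, such as GAANNTTC, when unfolded protein accumulates. HSPA6, a stress-inducible HSP70, was at 17.9, 17.6 and 18.4 FPKM in control and 44.8, 46.5 and 43.7 FPKM in silenced libraries (log2 change 1.28, limma adjusted p = 2.43e-06). All silenced HSPA6 values were above all controls, though HSPA6 has close paralogs whose reads could be shared. HSP90AA1, the inducible HSP90, rose from 407 to 518 FPKM (log2 change 0.35), its cofactor AHSA1 by 0.30, the nucleotide exchange factor HSPH1 by 0.33, DNAJA1 by 0.26 and the constitutive HSPA8 by 0.14. DNAJB4 and the transcription factor HSF2 fell by 0.20 and 0.15. GAANNTTC, searched on both strands, was in 12 of 35 windows of these genes (34.3%) against 6.77% of all windows, and 7 of the 14 higher members with a window held it. So did 4 of the 6 members with a window that were not called, namely HSP90AB1, HSPB1, CHORDC1 and HSPB8. HSPA6 and HSPA8 are an inducible and a constitutive gene of one family. Their windows at chr1:161524290-161524589 (HSPA6, plus) and chr11:123062087-123062386 (HSPA8, minus) are shown with GAANNTTC matches in capitals.
HSPA6: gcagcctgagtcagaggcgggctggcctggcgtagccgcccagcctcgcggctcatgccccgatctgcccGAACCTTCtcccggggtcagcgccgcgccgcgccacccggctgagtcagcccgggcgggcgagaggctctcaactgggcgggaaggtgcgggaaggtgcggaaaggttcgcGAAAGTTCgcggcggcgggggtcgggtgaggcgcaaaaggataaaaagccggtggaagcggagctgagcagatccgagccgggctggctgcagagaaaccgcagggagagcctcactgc
HSPA8: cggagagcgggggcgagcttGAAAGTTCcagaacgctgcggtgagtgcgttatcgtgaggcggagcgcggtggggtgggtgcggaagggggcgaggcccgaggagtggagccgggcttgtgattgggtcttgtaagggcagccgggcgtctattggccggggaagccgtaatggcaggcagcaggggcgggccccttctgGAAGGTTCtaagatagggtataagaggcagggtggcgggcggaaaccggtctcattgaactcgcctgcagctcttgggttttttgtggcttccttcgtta

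Genes of the endoplasmic reticulum and of amino acid supply were mostly higher. Of 23 chaperones and unfolded protein response genes of the endoplasmic reticulum 14 rose and 1 fell (11 and 3 with median centring). CRELD2 rose by 0.30, SDF2L1 by 0.28, PDIA4 by 0.19 and CALR by 0.18, and the co-chaperone DNAJB9 fell by 0.24. Of 23 amino acid transport and synthesis genes 16 rose, 69.6% of the list against 24.4% of all genes, and 1 fell. That gene, MTHFD2 (-0.095), was not called with the replicate block (limma adjusted p = 0.0633) or without any 1 library other than control replicate 2 (0.0638 to 0.0994). PSAT1, which makes phosphoserine on the way to serine, was at 12.7, 11.3 and 11.8 FPKM in control and 17.6, 18.1 and 18.7 FPKM in silenced libraries (log2 change 0.57, limma adjusted p = 1.43e-04). The mitochondrial PEP carboxykinase PCK2 rose by 0.33, the transporters SLC1A4 and SLC7A5 by 0.35 and 0.29 and PSPH, the last enzyme of serine synthesis, by 0.22. ATF4 is a transcription factor of many of these genes. Its own RNA fell by 0.08, and the ATF4 protein was not measured. The list of ATF4 and integrated stress response genes, which counts ATF4 among its lower members, had 7 higher and 3 lower of 17 tested. TRIB3, a pseudokinase that feeds back on ATF4, rose from 8.5, 8.36 and 8.49 FPKM to 15.7, 16 and 15.7 FPKM (log2 change 0.83, limma adjusted p = 4.24e-06) and DDIT3, the factor CHOP, by 0.39, whereas CEBPB fell from 238 to 188 FPKM (-0.33). Only 3 of these 17 were higher without shCBX7 replicate 3, and 4 without shCBX7 replicate 2 or control replicate 3. The C/EBP-ATF composite element TGATGNAA was in 9 of 32 amino acid gene windows (28.1%), 3 of them overlapping windows of MTHFD1L, in 2 of 23 windows of the ATF4 list (8.7%) and in 3.62% of all windows.

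The proteasome, which degrades ubiquitinated protein, had 23 higher and 1 lower of 38 subunit and activator genes (median log2 change 0.13). PSME3, the nuclear activator PA28γ, rose from 23.9 to 34.6 FPKM (log2 change 0.52) and the ATPase subunit PSMC3 from 39.6 to 51.6 FPKM. The gene called lower was PSMA6 (log2 change -0.15), whose call was lost with the replicate block (limma adjusted p = 0.0593) and without shCBX7 replicate 1 or 2 or control replicate 1 or 2 (0.0548 to 0.0691).

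Antioxidant genes under NRF2 gave a mixed picture, with 6 higher and 12 lower of 33. HMOX1, which degrades haem to biliverdin, iron and carbon monoxide, was at 9.12, 8.81 and 9.40 FPKM in control and 25.7, 26.4 and 24.8 FPKM in silenced libraries (log2 change 1.4, limma adjusted p = 2.43e-06). Of 4 tested genes within 150 kb, TOM1 and MCM5 were lower, by 0.26 and 0.10, and the other 2 were not called. SLC7A11, the cystine importer, rose by 0.34 and TXNRD1 by 0.11. PIR, MAFG and TKT fell by 0.29, 0.27 and 0.18, and NFE2L2, the gene of NRF2, fell by 0.12. In polyamine metabolism 5 of 12 rose and 3 fell. ODC1, the entry enzyme that decarboxylates ornithine, rose from 17.1, 16.1 and 16.9 FPKM to 30.5, 31.9 and 31.2 FPKM (log2 change 0.86, limma adjusted p = 9.00e-06), and spermidine synthase SRM rose by 0.28. SAT1, which acetylates polyamines for export, fell from 875 to 739 FPKM (log2 change -0.24).

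Glycolytic genes rose in 9 of 23 and fell in 2. PGAM1 rose from 80.6, 78.5 and 79.9 FPKM to 109, 108 and 109 FPKM (log2 change 0.44, limma adjusted p = 2.02e-05), LDHA by 0.21 and PGK1 by 0.17, and the neuronal enolase ENO2 and the glucose transporter SLC2A1 fell by 0.37 and 0.10. Of 25 fatty acid genes 7 rose (28%) and 8 fell (32%), against 24.4% and 20.2% of all genes. The lipid droplet protein PLIN2 rose by 0.37, ACSL5 by 0.30 and FASN by 0.21, and HILPDA, the regulator SREBF1 and the desaturase SCD fell by 0.34, 0.25 and 0.17.

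Most keratins rose, and 8 of 16 markers of the luminal urothelial surface fell. Of 11 keratin genes 8 were higher and 2 lower. Log2 changes in the list ran from -0.311 to 0.955, the highest being that of a keratin not named here. KRT17 was at 210, 210 and 206 FPKM in control and 317, 313 and 310 FPKM in silenced libraries (log2 change 0.59, limma adjusted p = 9.00e-06). KRT5, the basal keratin that pairs with KRT14, was at 187, 190 and 191 FPKM in control and 263, 264 and 267 FPKM in silenced libraries (log2 change 0.48, limma adjusted p = 1.60e-05). The silenced libraries were above the controls throughout for both genes. KRT6A rose by 0.52, with sequence close to KRT6B so that reads may be shared, KRT7 by 0.25 and KRT14 by 0.29, and KRT15 and KRT16 fell by 0.31 and 0.28. Squamous differentiation genes other than keratins split into 4 higher and 4 lower of 24 (2 higher and 7 lower without shCBX7 replicate 2, 2 and 2 without shCBX7 replicate 3, and 2 lower with the replicate block or without control replicate 3), with IVL higher, PPL down by 0.22 and SLURP1, a secreted Ly6 protein, at 2.95 FPKM in control and 1.27 in silenced libraries (log2 change -0.80, limma adjusted p = 7.30e-04). Among the mucosal and luminal genes 1 rose. CLDN4, a tight junction claudin, fell from 62.1 to 50.6 FPKM (log2 change -0.29) and ELF3, a luminal ETS factor, by 0.24, while the epithelial factor GRHL2 rose by 0.34. The count of lower luminal genes was 4 without shCBX7 replicate 2 or 3 or control replicate 1, and 5 without control replicate 3.

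S100 calcium-binding proteins were higher in 6 of 13 and lower in 2, of which 0 were lower with the replicate block or without shCBX7 replicate 1 or control replicate 3. S100A2, a p63 target of basal cells, was at 207, 242 and 226 FPKM in control and 290, 263 and 293 FPKM in silenced libraries (log2 change 0.33, limma adjusted p = 0.00611). S100A3 rose by 0.78 at a level of 2 and 4.15 FPKM.

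Of 22 tested genes of the Notch pathway, which signals between touching cells, 9 fell (40.9%) and 1 rose. HES1, the bHLH repressor that Notch induces, was at 66.4, 66.6 and 64.9 FPKM in control and 48.0, 45.5 and 48.3 FPKM in silenced libraries (log2 change -0.47, limma adjusted p = 6.22e-05). RBPJ, the DNA-binding partner of Notch, fell by 0.23, the receptor NOTCH3 by 0.21 and NRARP by 0.25. Of 28 Wnt genes 4 rose and 7 fell, with the receptor FZD6 and the antagonist SFRP1 higher by 0.34 and 0.23 and the ligands WNT4 and WNT7B lower by 0.35 and 0.16. In the TGF-β, BMP and ID list 9 rose and 14 fell of 36. ID1, an inhibitor of bHLH factors, fell from 278 to 234 FPKM (log2 change -0.25) and the inhibitory SMAD7 by 0.30, and TGFBR1 and INHBA rose by 0.23 and 0.19.

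The tested Polycomb genes changed by less than 1.5-fold, as did those developmental factors, a class that Polycomb is known to hold silent, that were expressed enough to be tested. Of 22 PRC1 genes 8 rose and 8 fell. KDM2B, the CpG island subunit of a variant PRC1, rose by 0.31, PCGF6 by 0.25, and the chromobox paralogs CBX6 and CBX2 by 0.20 and 0.16. PCGF1, RYBP and PHC3 fell by 0.31, 0.30 and 0.19. The lower count was 4 without shCBX7 replicate 2 and 5 without control replicate 3. EZH2 (chromosome 7, 148807383 to 148884321, minus strand) was at 40.2, 38.9 and 39.6 FPKM in control and 29.5, 31.2 and 30.2 FPKM in silenced libraries, and EZH1 at 15.9, 16 and 15.7 FPKM in control and 12.6, 12.5 and 12.7 FPKM in silenced libraries. Both were lower in every silenced library, by 0.38 (limma adjusted p = 1.09e-04) and 0.31 (limma adjusted p = 7.97e-05). Of 30 PRC2 and histone methylation genes 7 rose (23.3%) and 6 fell (20%), near the shares of all genes. With quantile normalization 5 rose and 10 fell. KDM6A, a demethylase that removes the PRC2 mark, rose by 0.25 and NSD1 by 0.23. Of 67 listed developmental transcription factors outside the HOX clusters 48 reached a mean of 0.5 FPKM, so factors silent in both arms were not tested. Of the 48, 5 rose (10.4%) and 15 fell (31.2%), against 24.4% and 20.2% of all genes. TFAP2A, FOXC1, DLX2 and SIX4 fell by 0.34, 0.30, 0.28 and 0.28, and NKX2-5 and FOXL1 rose by 0.23 and 0.21.

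Cisplatin crosslinks DNA, and the genes that repair, exclude or answer such damage were listed because the series concerns cisplatin sensitivity. Of 40 repair genes 13 rose and 10 fell. BRIP1, a helicase of the Fanconi pathway, rose from 9.60, 9.36 and 9.75 FPKM to 12.9, 13.4 and 13.2 FPKM (log2 change 0.42, limma adjusted p = 7.29e-05). BRCA1 rose by 0.32, XRCC2 by 0.22 and FANCD2 by 0.21, and the damage sensors DDB2 and DDB1 fell by 0.27 and 0.15 with FANCL down by 0.14. The excision endonuclease subunit ERCC1 rose by 0.13. Of 30 glutathione, metal transport and metallothionein genes 7 rose (23.3%) and 5 fell (16.7%), near the 24.4% and 20.2% of all genes. The higher calls became 3 without shCBX7 replicate 3 and 4 without shCBX7 replicate 2 or control replicate 1 or 3, and the lower calls 3 with the replicate block or without shCBX7 replicate 2 or control replicate 2. SLC30A1, a zinc exporter, fell from 44.6 to 32.1 FPKM (log2 change -0.47), and the copper pump ATP7A rose by 0.20. Of 31 BCL2 family and death receptor genes 5 rose and 12 fell. The BH3-only death promoters BMF (31.3 to 22.4 FPKM, log2 change -0.47), BBC3 (-0.30), PMAIP1 (-0.27) and BCL2L11 (-0.13) fell, as did the apoptosis inhibitor BIRC3 (-0.29). BAX, a pore-forming death effector, rose by 0.16.

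**Figure D4:**
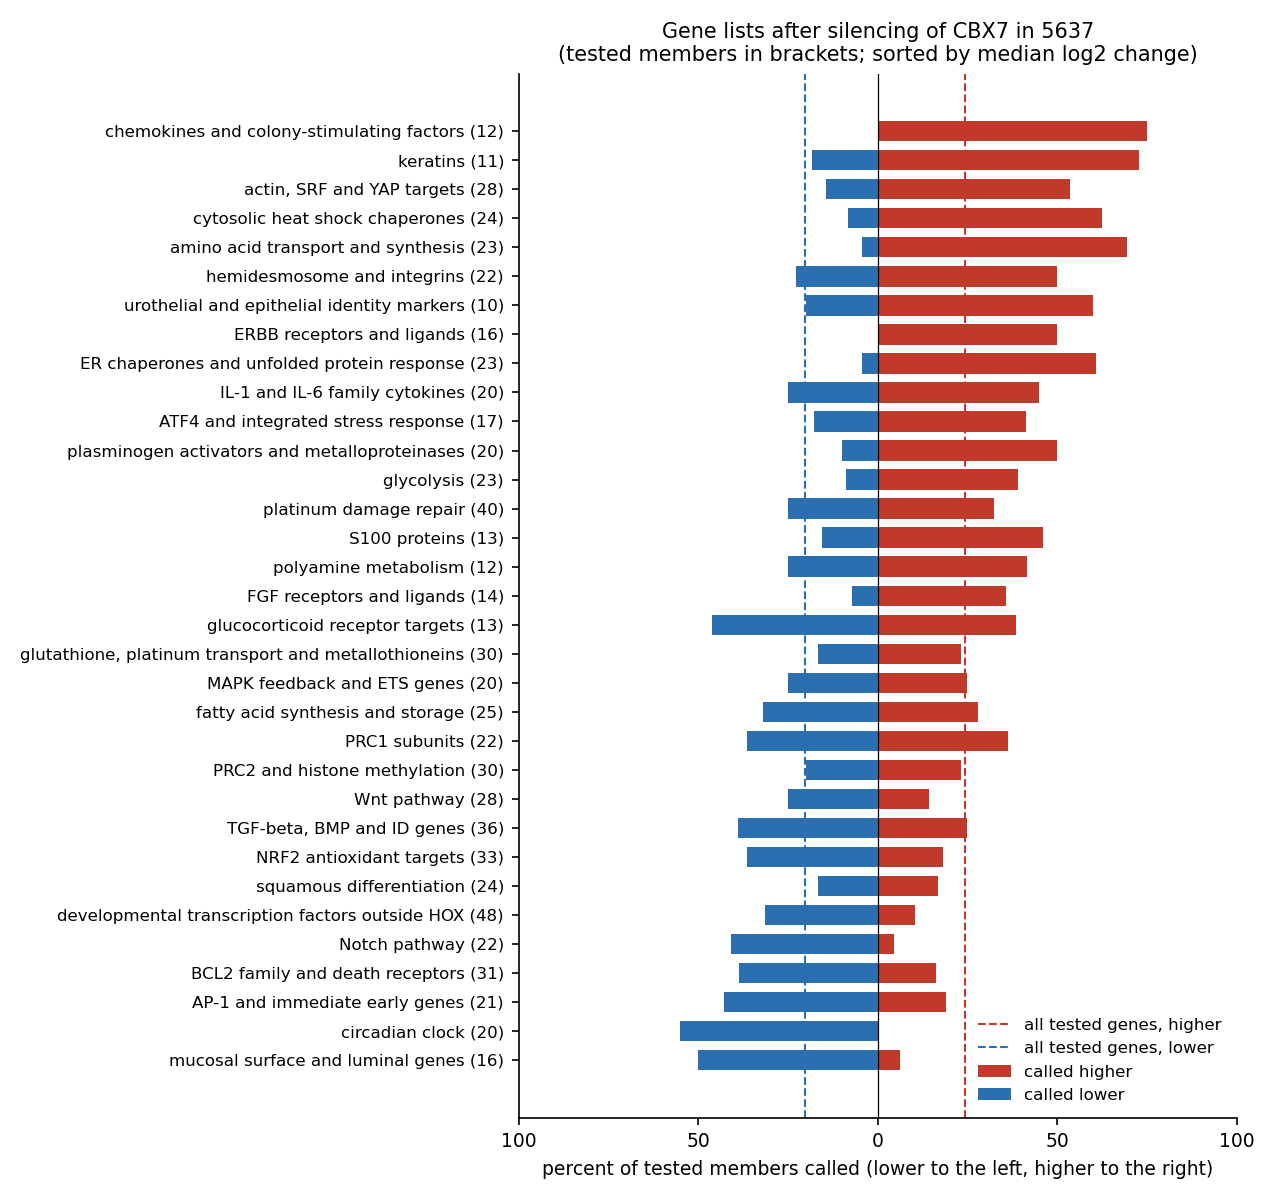
Percentage of the tested members of each gene list called higher (red, to the right) and lower (blue, to the left), with the number tested in brackets, lists sorted by median log2 change and dashed lines at the 24.4% and 20.2% of all tested genes. The chemokine list has 75% higher and 0 lower, and the clock list 55% lower and 0 higher.

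Of 78 genes with cytosolic ribosomal protein symbols 2 rose (2.56%) and 16 fell (20.5%, near the 20.2% of all genes). Their median log2 change was -0.08. The 2 that rose were the paralogs RPL26L1 (0.36) and RPL7L1 (0.21). With voom on recovered reads 2 rose and 31 fell of the 59 that could be run. Of 75 mitochondrial ribosomal protein genes 31 rose (41.3%) and 7 fell (9.33%), with a median of 0.07. Small nucleolar RNA host genes, whose introns carry snoRNAs and whose spliced RNAs are degraded during translation, fell in 9 of 15 and rose in 1. SNHG16 fell from 29 to 20.3 FPKM and SNHG1 from 40.6 to 32.9 FPKM. Of 410 zinc finger genes with ZNF symbols 123 rose and 42 fell. On chromosome 19, where many lie in clusters, 57 of 189 rose and 9 fell, against 147 higher and 165 lower of 705 other genes of that chromosome. On the other chromosomes 66 of 221 ZNF genes rose and 33 fell.

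The change in 5637 cells was set against that in 786-O cells, where the same arms were sequenced, by the interaction of line and hairpin in a limma fit of 12 libraries. CBX7 RNA itself fell by less in 5637 (-0.18) than in 786-O (-0.40), so line and depth of silencing cannot be told apart. Over all genes of that fit, 6808 of 12777 differed between lines. Of the 196 named genes, which were chosen for their change in 5637, 165 differed between lines. Of these, 61 were called in both lines in opposite directions, a count without a matching share over all genes. PER1 fell in both lines (-0.82 in 5637, -0.77 in 786-O; difference -0.05, limma adjusted p = 0.539), a difference not shown to be other than 0. CXCL1 rose alike (0.98 and 0.96; difference 0.02, limma adjusted p = 0.797), as did TRIB3 (0.83 and 0.89). TPM4 rose by more in 786-O (2.31, difference -1.39). NR1D1 fell by less there (-0.16, difference -0.55, limma adjusted p = 9.63e-05), and HES1, BMF and EZH1 went up there (0.47, 0.42 and 0.45) with differences of -0.94, -0.89 and -0.76. PSAT1 rose in 5637 (0.57) and was at -0.06 in 786-O, and the difference of 0.62 passed the test (limma adjusted p = 6.28e-06). IVL and KRT5 are listed at 0 in 786-O.

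**Figure D5:**
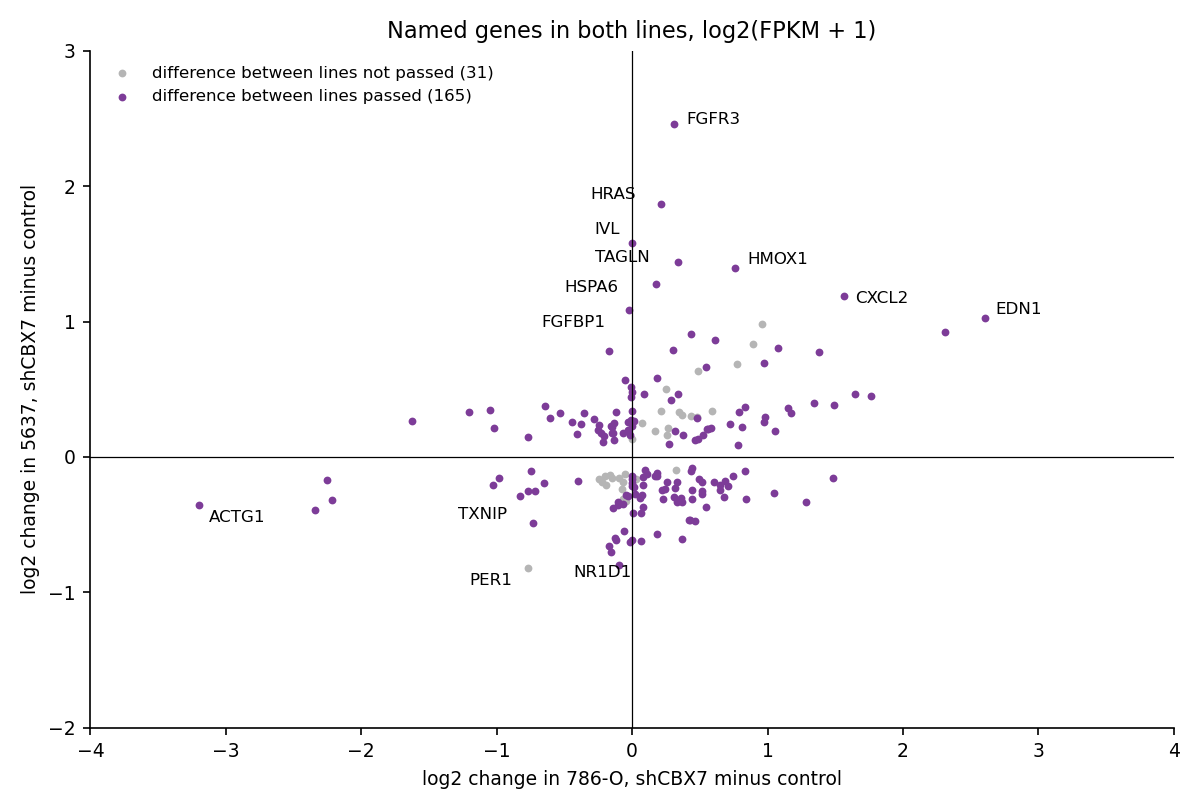
Log2 change on silencing in 5637 (vertical axis) against that in 786-O (horizontal axis), both on the log2(FPKM + 1) scale, for the 196 named genes, with the 165 whose change differed between lines in purple and the other 31 in grey. PER1 is lower in both lines, and FGFR3 at 2.46 in 5637 lies near 0.31 in 786-O.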

How the data were processed

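The 3 shCBX7 and 3 control libraries of 5637 cells were made with a strand-marking kit according to the labels. Per the file headers, the authors deposited 1 FPKM value for each gene and library. The aligner, the counter and its strand setting were not given in the sources used here; the submitters' processing notes name a mouse build although the gene symbols are human. Changes are log2(FPKM + 1) differences computed with limma 3.58.1 in R 4.3.3 (lmFit, eBayes with a mean-variance trend) over the 12689 genes whose mean reached 0.5 FPKM, without a replicate block, with Benjamini-Hochberg adjustment over all of them and calls at an adjusted p under 0.05. Per-library totals and read numbers were recovered from the FPKM steps, which gave whole reads (within 0.01) for 28077 of 29890 genes (93.9%). Symbols matched GENCODE 29 positions (GRCh38) for 29809 genes through the 786-O table. The fitting code was tested on simulated data.

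The members and the 39 gene lists were chosen with earlier results of these data known. Named genes (196) are CBX7, FGFR3, EZH2, genes changed at least 2-fold, the 6 largest rises and falls per level class from 1 FPKM upwards among genes whose arms did not overlap (small RNA, LINC, clone-named and ribosomal pseudogene symbols left out of these), and up to 3 per list and direction by smallest p; other genes given with values were chosen after their values were seen. The list of aminoacyl-tRNA synthetases (2 of 20 tested, both higher) and the histone list (0 of 21 tested) hold symbols that were since renamed and are not analysed here, and the renal list had 1 tested gene, CA9, which fell by 0.32. Alternatives were other pseudocounts, filters and scalings, a replicate block, each library left out, and voom on recovered reads (11618 genes).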

Additional observations from a re-analysis of the deposited data

Results flagged for a closer look

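The following log2 changes on silencing differed between the 5637 and 786-O cells by the limma interaction test over 12 libraries, and each value is the 5637 change minus the 786-O change on the log2(FPKM + 1) scale. The difference was 2.15 for FGFR3 (limma adjusted p = 3.69e-08), with a rise of 2.46 in 5637 and 0.31 in 786-O. CBX7, the target, differed by 0.222 (limma adjusted p = 0.0268), with a smaller fall in 5637 (-0.18) than in 786-O (-0.40). EZH2 differed by -0.235 (limma adjusted p = 0.0176). EDN1 differed by -1.583 (limma adjusted p = 1.18e-08) and CXCL2 by -0.38 (limma adjusted p = 0.00401), both rising by more in 786-O. HMOX1 differed by 0.642 (limma adjusted p = 3.95e-06). FGFBP1 differed by 1.106 (limma adjusted p = 3.95e-06), TAGLN by 1.096 (limma adjusted p = 3.19e-06) and HSPA6 by 1.102 (limma adjusted p = 3.98e-06). In 786-O cells FGFBP1, TAGLN and HSPA6 were below 1 FPKM in both arms. Control and shCBX7 means there were 0.087 and 0.073 FPKM for FGFBP1, 0.442 and 0.834 for TAGLN and 0.414 and 0.601 for HSPA6. FGFR3 stood at 0.945 FPKM in 786-O control libraries. The added 1 FPKM shrinks the 786-O change at such levels, and whether the folds differed between lines was not tested. HRAS differed by 1.656 (limma adjusted p = 0.00224). IVL differed by 1.582 (limma adjusted p = 1.00e-08) and is listed at 0 in every 786-O library. The 2 tables were normalized separately, so levels are not set across them here.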

How the results depend on the processing

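The choice of log scale moved the number of large changes most, since 101 genes passed 1.5-fold in the reported test, 252 with a pseudocount of 0.1 and 251 of 11618 with voom on recovered reads. The number of called genes, 5651, was 5014 of 21233 without the filter, 5655 (2815 higher, 2840 lower) with quantile normalization, 5652 (2767 higher, 2885 lower) with median centring and between 4677 and 5128 with a library left out. With the replicate number as a block it was 4942 (2701 higher, 2241 lower). Deviations of same-numbered libraries correlated at 0.023, -0.031 and -0.007, and those of differently numbered libraries at -0.032 to 0.042. Counting noise would give values near these in paired libraries too, so whether the numbers pair the libraries is not settled. The log2 change of CBX7 ran from -0.142 to -0.200 with a library left out and its call was lost without shCBX7 replicate 2 or control replicate 3, while EZH2 kept its call under every alternative and FGFR3 under all but voom, which could not be run for it. Among other named genes ACTG1 lost its call only with quantile normalization, and FRS2, DSG3, GRHL1, S100A9, S100A6, MTHFD2, GPX8, EPCAM, GATA3, PSMA6, RORA and APOBEC3F under at least 3 alternatives each. No called gene changed direction under the alternatives run for it, and ARNTL2, not called, was called with voom. ARNTL, not called, ran from -0.003 to 0.024 with a library left out, and turned to -0.009 with quantile normalization and -0.003 with median centring. Also not called, CRY1 ran from -0.003 to 0.059, HSPB8 from -0.09 to 0.008 and OGFR from -0.029 to 0.043 with a library left out, and OGFR turned to -0.013 with median centring. The cause of these shifts was not tested. Under 1 FPKM 185 of 1183 genes were called, and the part of depth in that share was not tested.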
